A study of Homo sapiens with 11 samples.

Results

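Transcripts of 10 cytokine receptor genes were followed in the KMT2A-rearranged human leukemia line MOLM-13, derived from acute myeloid leukemia, out of 38557 genes in the deposited count tables. The genes were IL7R, IL2RG, CSF2RB, CSF3R, IL6R, IL6ST, IL10RA, IL4R, IFNGR1 and IFNGR2, found by their symbols, and each of the 10 was among the 14683 genes with enough counts to be tested. The set was chosen by the measured rise of IL7R in the combination, among the largest of any gene, so the values of IL7R in the combination are a description and were not tested. All cells were of the same line and were cultured for 72 h, in DMSO as the diluent (4 libraries), in 1 µM of the Menin inhibitor MI-503 (4 libraries), or in the same dose of MI-503 plus 100 nM of PR-957, also called ONX-0914, which inhibits the immunoproteasome subunit PSMB8 (3 libraries, numbered 1, 2 and 4, called the combination here). The comparisons asked how Menin inhibition alters expression and whether immunoproteasome inhibition adds to it. No library with PR-957 alone was analysed here, so a change in the combination cannot be divided between PR-957 itself and its joint action with MI-503.

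Cytokine receptors of this class have no kinase of their own. Binding of the ligand joins a private chain to a shared chain, Janus kinases (JAK) bound to the chains phosphorylate each other, and STAT factors are then phosphorylated and enter the nucleus. IL7R is the private chain for interleukin-7 and pairs with the common gamma chain, IL2RG, or with CRLF2 to receive TSLP, and it is best known from lymphoid progenitors and T cells. CSF2RB and CSF3R serve granulocyte and macrophage growth factors, IL6R pairs with the shared signal chain IL6ST (gp130), and IL10RA, IFNGR1 and IFNGR2 are class II receptors that on myeloid cells receive interleukin-10 and interferon gamma.

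The promoter sequences of the receptors are shown for their number of CG dinucleotides. Few were found in IL7R, IL10RA and CSF3R, which rose most under MI-503 among the members with a promoter sequence. IL2RG also had few, though its change under MI-503 was among the smallest. RefSeq's GRCh38.p14 promoters, which run from 250 bases before to 50 after a start site, were matched by symbol for 9 of the 10 genes, all but CSF2RB. That of IL10RA lies inside the gene as counted, which begins at 117986391, and the bases before that point were not examined. The promoters of IL4R, IFNGR1 and IFNGR2 also lie inside their genes as counted. In the IL7R promoter (chr5:35856641-35856940, plus strand) no CG occurs, and the capitals mark instead the ETS core GGAAGT and the TATA letters TATAAA, each searched on both strands. Capitals mark each CG in the others, which are IL10RA (chr11:117989695-117989994, plus strand), the promoter of CSF3R with the fewer CG (chr1:36483265-36483564, minus strand), IL2RG (chrX:71111528-71111827, minus strand) and, as the member with the most, IFNGR2 (chr21:33403163-33403462, plus strand).
IL7R: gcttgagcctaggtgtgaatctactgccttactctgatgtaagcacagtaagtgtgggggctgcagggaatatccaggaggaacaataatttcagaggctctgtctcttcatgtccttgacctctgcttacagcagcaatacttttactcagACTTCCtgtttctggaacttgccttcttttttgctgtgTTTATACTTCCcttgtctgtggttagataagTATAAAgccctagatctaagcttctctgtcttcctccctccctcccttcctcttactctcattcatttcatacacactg
IL10RA: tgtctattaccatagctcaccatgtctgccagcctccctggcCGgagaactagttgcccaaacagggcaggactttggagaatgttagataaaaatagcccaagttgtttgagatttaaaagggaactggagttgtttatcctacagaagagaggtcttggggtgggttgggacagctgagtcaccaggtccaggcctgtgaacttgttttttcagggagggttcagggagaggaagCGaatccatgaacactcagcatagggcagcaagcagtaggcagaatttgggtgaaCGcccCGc
CSF3R: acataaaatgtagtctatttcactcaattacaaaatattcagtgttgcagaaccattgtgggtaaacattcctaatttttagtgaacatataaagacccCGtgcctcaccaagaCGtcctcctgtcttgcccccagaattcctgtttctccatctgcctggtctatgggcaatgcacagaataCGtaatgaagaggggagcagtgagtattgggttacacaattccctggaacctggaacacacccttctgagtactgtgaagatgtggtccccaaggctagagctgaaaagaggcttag
IL2RG: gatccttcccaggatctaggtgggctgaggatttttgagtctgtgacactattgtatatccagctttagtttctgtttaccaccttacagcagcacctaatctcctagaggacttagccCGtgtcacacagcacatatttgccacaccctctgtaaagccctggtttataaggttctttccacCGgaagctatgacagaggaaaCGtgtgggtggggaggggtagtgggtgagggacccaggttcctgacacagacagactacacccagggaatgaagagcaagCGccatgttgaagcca
IFNGR2: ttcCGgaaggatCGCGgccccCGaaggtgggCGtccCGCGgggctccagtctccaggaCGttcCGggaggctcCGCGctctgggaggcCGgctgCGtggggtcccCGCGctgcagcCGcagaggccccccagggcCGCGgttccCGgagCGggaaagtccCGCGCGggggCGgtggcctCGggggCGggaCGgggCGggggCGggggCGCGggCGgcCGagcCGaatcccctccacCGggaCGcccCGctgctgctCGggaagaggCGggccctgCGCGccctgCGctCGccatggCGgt

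IL7R held 0 CG in 300 bases, which 3.96% of the 35116 RefSeq promoters matched, against a median of 14. The count was 4 in IL2RG and in IL10RA, and 3 and 9 in the promoters of CSF3R. The other matched members were richer in CG, with 25 and 29 in the promoters of IFNGR1, 27 in IL6R, 36 in IL6ST, 42 in IL4R and 44 in IFNGR2. GGAAGT, the core letters of many ETS-family sites, was found in IL7R with its first base 98 and 55 bases before the start site, in IL4R and in both IFNGR1 promoters, and in 22.8% of all promoters. TATAAA, present in 11.5% of all promoters, occurred in IL7R 60 and 29 bases before the start site, in IL2RG 86 bases before it and in CSF3R 162 bases before it. The TATAAA match of IL7R at 60 bases and the GGAAGT match at 55 bases share a base, and both lie on the strand opposite to the gene, as does the GGAAGT match at 98 bases. The STAT letters TTCNNNGAA were found in 7.66% of all promoters and in no member's.

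Depth ran between 18.9 and 41.2 M counted fragments per library. The labels do not say whether replicates came from separate cultures, so p-values measure only the spread between these samples, which may be technical. Combination replicate 1 stood apart from replicates 2 and 4: it held 31 genes, out of 10041 that averaged 5 or more CPM (counts per 1000000 counted fragments), whose level was over 2-fold away from what the group's remaining libraries averaged. Replicates 2 and 4 had 2 and 10 such genes, and a DMSO or MI-503 library 1 at the highest. Each member's change in the combination against DMSO, and each list's counts, were therefore also computed without it. Markers of myeloid leukemia summed to 1860 to 1940 CPM in DMSO, 2400 to 2570 in MI-503 and 2590 to 4980 in the combination, with CD14 at or under 13 counts in every library. LYZ made up most of the rise in the combination, at 88.0 to 106.1 CPM in DMSO, 370.7 to 381.4 in MI-503 and 599.2 to 2513 in the combination, while FLT3, MEIS1 and HOXA9 of the same list were called lower in both treatments against DMSO. Since IL7R is best known from lymphoid cells, 17 T cell and NK cell markers were summed, and the sum was 17.8 to 23.4 CPM in DMSO, 49.2 to 52.3 in MI-503 and 53.9 to 67.8 in the combination. Most of this was LAT and NKG7, while the defining CD3D, CD3E and CD3G had at most 2 counts in any library and CD2 had 0. The sum of 12 markers of B cells and lymphoid precursors moved the other way, from 49.4 to 52.0 CPM in DMSO to 34.2 to 35.1 in MI-503 and 24.7 to 28.1 in the combination. The 6 erythroid and megakaryocyte markers summed to 0.694 CPM or less in every library, and 9 epithelial and stromal markers summed to 38.3 to 45.6, 35.2 to 37.6 and 25.3 to 36.3 CPM. The part of the rising and falling marker lists in the receptor changes was not tested, and in bulk RNA fewer cells of a type cannot be told apart from less RNA per cell.

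Levels of different receptors were compared per length, as counted fragments scaled to the library total and to exon length (FPKM). In DMSO, the most abundant receptor transcripts were IL6R with 31.0 ± 1.48 FPKM (SD, n = 4), CSF3R with 17.99 ± 2.63, IFNGR1 with 14.6 ± 0.529 and IL4R with 7.70 ± 0.204, and IL7R was last of the 10 with 0.444 ± 0.0585. The libraries of IFNGR2 (2.47 FPKM) and CSF2RB (2.29 FPKM) overlapped in DMSO and were not separated. In MI-503 the order began with CSF3R at 45.1 ± 3.46 FPKM, ahead of IL6R at 34.8 ± 1.04, and IL7R at 1.84 ± 0.139 overlapped IL10RA at 1.90 ± 0.0371. In the combination IL7R stood above 5 others, at 6.38 ± 0.629 FPKM (n = 3), below IL4R at 10.1 ± 0.673 and above CSF2RB at 4.41 ± 0.255, and IL2RG was now last at 0.585 ± 0.111. Of all exon bases, 33.6% of IL6R are shared with SHE and 56.4% of IL10RA with SMIM35, and fragments on shared bases were left out of the authors' counts, so both are understated per length. With shared bases left out of the length as well, an alternative added after the data were seen, IL6R reached 46.7, 52.4 and 55.6 FPKM in DMSO, MI-503 and the combination and was then first in all groups, and IL10RA reached 1.29, 4.36 and 6.25. IFNGR2, whose length counts 2 sequences of the annotation, reached 4.10, 5.03 and 5.84 in place of 2.47, 3.03 and 3.52. By that length IL7R was not separated from IL10RA and IFNGR2 in the combination, since both means lay inside its library range of 5.69 to 6.92, and in MI-503 it was below both. Fragments that map to both sequences of IFNGR2 were also left out of the counts, so the level of IFNGR2 may still be understated.

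**Figure D1:**
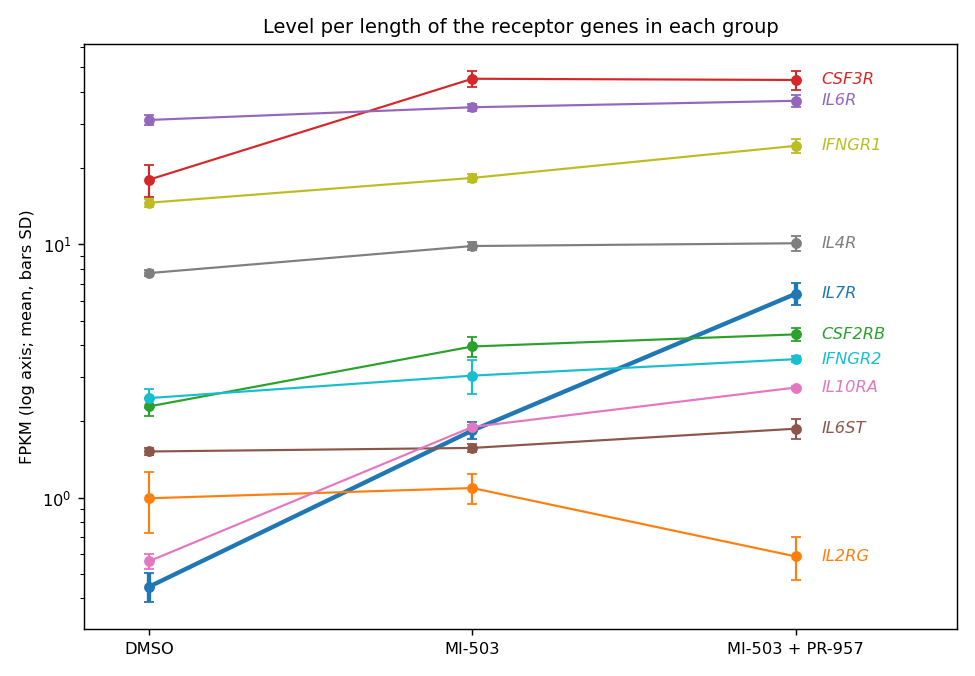
Level of each receptor transcript per length (FPKM, log axis) in 4 DMSO, 4 MI-503 and 3 combination libraries, points giving group means and bars the SD. IL7R (thick line) goes from 0.444 to 1.84 and 6.38 FPKM and crosses the lines of the less abundant receptors, while IL2RG ends lowest at 0.585.

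MI-503 was compared with DMSO to see which receptors respond to Menin inhibition alone. IL7R, IL10RA, CSF3R and CSF2RB rose the most, by log2 fold changes of 2.06, 1.76, 1.33 and 0.80, followed by IL4R, IFNGR1, IFNGR2 and IL6R with 0.35 to 0.17. IL6ST and IL2RG were not called. At an edgeR adjusted p under 0.05, 8 of the 10 members were called higher and 0 lower, where 51.4% of all tested genes were called, 22.0% higher and 29.3% lower. The libraries of MI-503 lay wholly above those of DMSO for 7 members, which was so for 21.2% of all genes. The median log2 fold change was 0.34 over the members and −0.03 over all tested genes. The DMSO libraries used here are also those of the comparison for which IL7R was taken up. The other members, too, were chosen with earlier results of these data known.

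The combination was compared with DMSO for the joint effect, and with MI-503 for what PR-957 added. Against DMSO, 8 of the 9 members other than IL7R were called higher and 1, IL2RG, lower, beside 31.7% and 32.8% of all tested genes (together 64.5%), and the 8 that were higher did not overlap with DMSO in any library, as did 29.3% of all genes. IL2RG was the only lower member and its libraries did overlap. Against MI-503, IFNGR1, IL10RA and IL6ST were called higher, IL2RG lower and 5 members not, beside 23.6% and 23.8% of all tested genes (together 47.4%). All 4 called members were without overlap between groups, in all genes 23.8% higher and 23.7% lower. The counts against MI-503, 3 and 1 of 9, were thus near the background, while those against DMSO were well above it in the higher direction. Since the members were chosen with earlier results of these data known, that excess describes the chosen genes and is not a test of them. The median log2 fold changes of the 9 members were 0.50 against DMSO and 0.15 against MI-503, beside 0.01 and 0.00 over all genes. The 3 comparisons share their libraries in pairs and are not independent of each other.

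**Figure D2:**
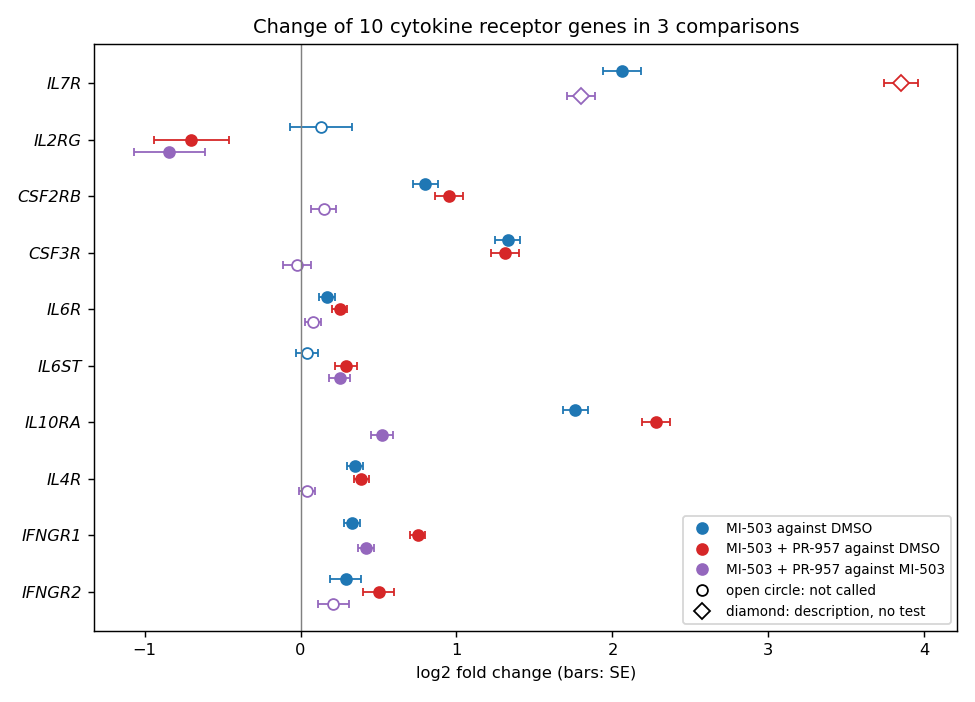
Log2 fold change of the 10 receptor genes in the 3 comparisons (colours), bars giving the SE, filled circles genes called at an edgeR adjusted p under 0.05. IL7R lies farthest to the right (2.06 in MI-503 and 3.85 in the combination against DMSO, the latter a description with no test), IL10RA follows (1.76 and 2.28), and IL2RG is the only gene left of zero in both combination contrasts (−0.70 and −0.84).

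Among the receptors of the common gamma chain family, the private chain IL7R (chromosome 5, 35856891 to 35879603, plus strand, hg38) and the shared chain IL2RG moved apart. IL7R measured 1.86, 2.25, 1.76 and 2.28 CPM in the DMSO libraries, from 37 to 55 counts each, where CPM are relative to library totals scaled by edgeR's TMM factors. In MI-503 it measured 7.68, 8.66, 8.18 and 9.17 CPM. The combination replicates 1, 2 and 4 measured 29.9, 26.1 and 31.7 CPM, from 520 to 1268 counts. No 2 groups overlapped, and combination replicate 1, which stood apart over all genes, lay between the other two here. The rise under MI-503 was 4.16-fold (log2 2.06, SE 0.12, edgeR adjusted p = 4.4e-10), against the same DMSO libraries that entered the choice of IL7R. In the combination, with no test, it was 14.5-fold over DMSO (log2 3.85, SE 0.11) and 3.47-fold over MI-503 (log2 1.80, SE 0.09), and 3.86 and 1.75 without replicate 1. Among the 10041 genes of at least 5 CPM, IL7R had the third largest log2 rise in the combination against DMSO, between LYZ with 4.11 and TLR4 with 3.61. Its place was 24 against MI-503, between ABHD4 and LOC105372860, and 29 in MI-503 against DMSO, between BASP1 and ABCA1.

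IL2RG (chromosome X, 71107404 to 71111631, minus strand), the chain through which interleukin-7 and several other cytokines signal, was scarce throughout. Its DMSO libraries held 1.32, 1.93, 1.04 and 1.80 CPM and its MI-503 libraries 1.94, 1.40, 1.65 and 1.72. The combination libraries held 1.09, 0.753 and 0.856 CPM, from 46, 15 and 23 counts. All combination libraries lay below all MI-503 libraries but reached into the range of DMSO. The difference between MI-503 and DMSO was 0.13 on the log2 scale (SE 0.20, edgeR adjusted p = 0.622). In the combination IL2RG fell by 0.84 against MI-503 (SE 0.23, edgeR adjusted p = 0.00665; −1.05 without replicate 1) and by 0.70 against DMSO (SE 0.24, edgeR adjusted p = 0.0151; −0.88 without replicate 1). The latter call was lost without DMSO replicate 2 (−0.57, edgeR adjusted p = 0.0516) and without combination replicate 2 (−0.62, edgeR adjusted p = 0.0512). Per length, the ratio of IL7R to IL2RG went from 0.462 ± 0.0751 in DMSO (SD, n = 4) to 1.71 ± 0.313 with MI-503 and 11.1 ± 1.66 with both inhibitors (n = 4 and 3). In DMSO each library had more IL2RG than IL7R per length, and in each treated library the order was turned.

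**Figure D3:**
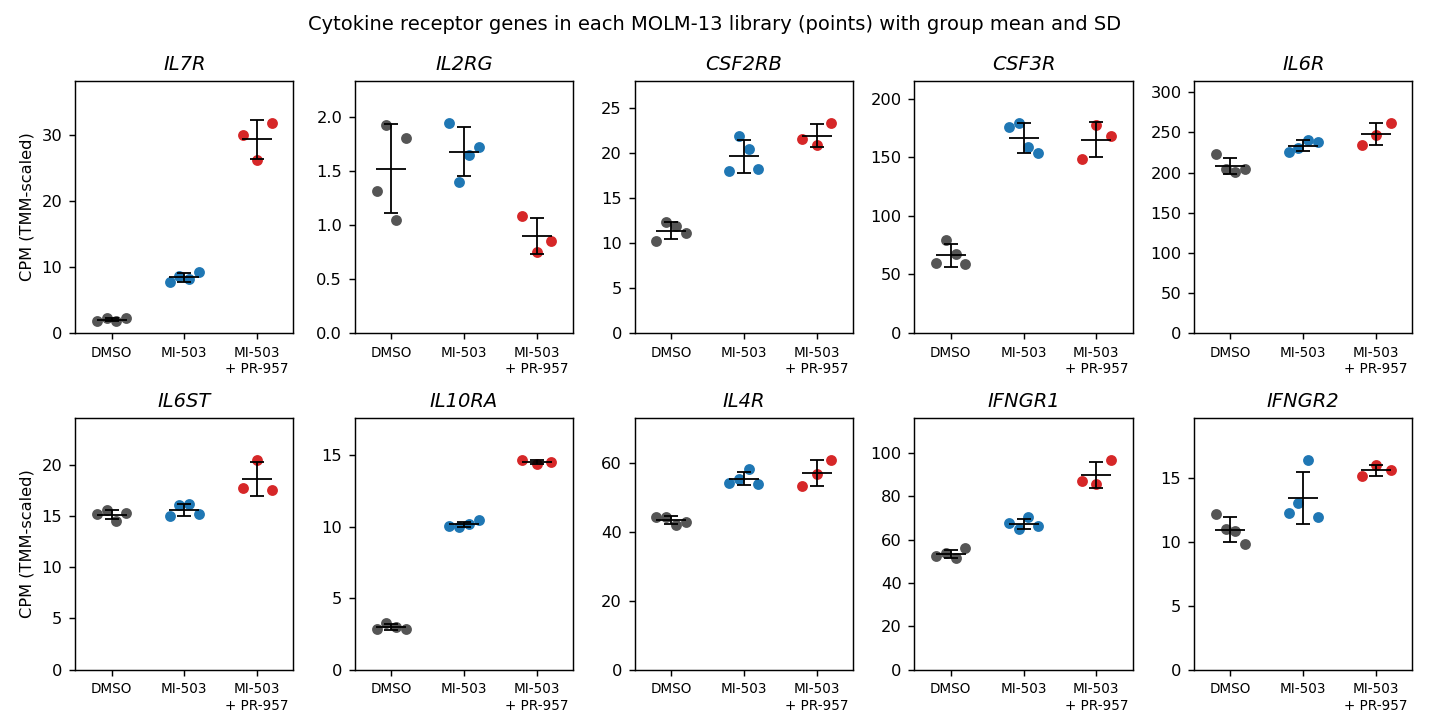
CPM of each receptor gene in every library (points) with the group mean and SD (black), each panel with its own axis from 0. The IL7R points step up from about 2.04 to 8.42 and 29.3 CPM with no overlap, CSF3R stays at its MI-503 level in the combination (166.8 and 165.1 CPM), and IL2RG drops in the combination to 0.898 CPM.

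IL4R (chromosome 16, 27313668 to 27364778, plus strand), which receives interleukin-4 with IL2RG and interleukin-13 with IL13RA1, rose under MI-503 with no further change in the combination. It measured 42.0 to 44.4 CPM in DMSO, 54.1 to 58.4 in MI-503 and 53.5 to 61.1 in the combination. Only the DMSO libraries were separated from the rest. On the log2 scale IL4R rose by 0.35 in MI-503 (SE 0.05, edgeR adjusted p = 1.31e-05) and 0.39 in the combination (SE 0.05, edgeR adjusted p = 4.32e-06; 0.46 without replicate 1). Between the treatments the change was 0.04 (SE 0.05, edgeR adjusted p = 0.577).

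The receptors of myeloid growth factors rose under MI-503 and stayed there. CSF3R (chromosome 1, 36466043 to 36483314, minus strand), the receptor of G-CSF, measured 59.8, 79.8, 67.7 and 58.8 CPM in DMSO. It measured 175.8, 179.3, 158.6 and 153.3 CPM in MI-503, and 148.9, 177.7 and 168.6 in the combination. All treated libraries lay far above DMSO, and the treatments overlapped with each other. The log2 fold changes against DMSO were 1.33 in MI-503 (SE 0.08, edgeR adjusted p = 2.08e-09) and 1.31 in the combination (SE 0.09, edgeR adjusted p = 1.35e-09; 1.40 without replicate 1). PR-957 on top of MI-503 gave −0.02 (SE 0.09, edgeR adjusted p = 0.889). CSF2RB (chromosome 22, 36913574 to 36940449, plus strand), the shared beta chain for GM-CSF, interleukin-3 and interleukin-5, measured 10.2 to 12.3 CPM in DMSO, 18.1 to 21.9 in MI-503 and 20.9 to 23.3 in the combination. Its changes against DMSO were 0.80 (SE 0.08, edgeR adjusted p = 4.73e-07) and 0.95 (SE 0.09, edgeR adjusted p = 3.71e-08; 0.99 without replicate 1). The difference between the treatments, 0.15, was not called (SE 0.08, edgeR adjusted p = 0.133).

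Both chains of the interleukin-6 receptor rose in the combination against DMSO, and the differences between their changes were not tested. IL6R (chromosome 1, 154405193 to 154469450, plus strand) measured 200.5 to 222.7 CPM in DMSO, 225.1 to 240.0 in MI-503 and 234.3 to 261.7 in the combination. The treated libraries lay above DMSO by a small margin, with log2 fold changes of 0.17 (SE 0.05, edgeR adjusted p = 0.00526) and 0.25 (SE 0.05, edgeR adjusted p = 0.000244; 0.31 without replicate 1). IL6ST (chromosome 5, 55935095 to 55994963, minus strand), which also carries signals of oncostatin M and related cytokines, measured 14.5 to 15.6 CPM in DMSO, 14.95 to 16.1 in MI-503, and 17.7, 20.5 and 17.5 in the combination. Its change in MI-503 was 0.04 (SE 0.07, edgeR adjusted p = 0.622), and the combination was higher than DMSO by 0.29 (SE 0.07, edgeR adjusted p = 0.00201) and than MI-503 by 0.25 (SE 0.07, edgeR adjusted p = 0.00914). Both calls held without replicate 1 (0.34 and 0.25), but the one against MI-503 was lost without combination replicate 2 (0.14, edgeR adjusted p = 0.134). IL6R exceeded IL6ST per length 20.4 ± 0.999, 22.3 ± 0.846 and 19.9 ± 2.15 times in DMSO, MI-503 and the combination, or 30.7, 33.5 and 29.9 times with shared exon bases left out.

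Of the class II receptors, IL10RA and IFNGR1 rose under MI-503 and again from MI-503 to the combination. IL10RA (chromosome 11, 117986391 to 118003037, plus strand), the ligand-binding chain for interleukin-10, measured 2.87, 3.26, 2.99 and 2.85 CPM in DMSO and 10.0, 10.0, 10.2 and 10.4 in MI-503. In the combination it measured 14.7, 14.4 and 14.6 CPM. The libraries within a group lay close together and the groups were fully separated. The change was 3.40-fold in MI-503 (log2 1.76, SE 0.08, edgeR adjusted p = 8.09e-11) and 4.87-fold in the combination (log2 2.28, SE 0.09, edgeR adjusted p = 1.66e-12; 2.30 without replicate 1). The combination exceeded MI-503 by 0.52 (SE 0.07, edgeR adjusted p = 2.39e-05; 0.49 without replicate 1), the largest of the tested rises between the treatments among the members. Its partner IL10RB was far more abundant, so that IL10RA reached 0.0274, 0.0697 and 0.0868 of it per length in DMSO, MI-503 and the combination, or 0.0629, 0.160 and 0.199 with shared exon bases left out of the length.

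IFNGR1 (chromosome 6, 137197484 to 137220351, minus strand), which binds interferon gamma, measured 52.5, 54.0, 51.7 and 56.1 CPM in DMSO and 67.7, 65.2, 70.4 and 66.2 in MI-503. It measured 87.1, 85.9 and 97.0 CPM in the combination, again with no overlap between groups. The log2 fold changes were 0.33 in MI-503 (SE 0.05, edgeR adjusted p = 2.38e-05), 0.75 in the combination (SE 0.05, edgeR adjusted p = 1.35e-09; 0.79 without replicate 1) and 0.42 between the treatments (SE 0.05, edgeR adjusted p = 4.21e-06; 0.42 without replicate 1). IFNGR2 (chromosome 21, 33402896 to 33437521, plus strand), the chain that completes the receptor, measured 9.82 to 12.2 CPM in DMSO, 12.0 to 16.5 in MI-503 and 15.2 to 16.1 in the combination. MI-503 replicate 3, at 16.5 CPM, was above its group and above the combination. The change in MI-503 was 0.29 (SE 0.10, edgeR adjusted p = 0.0198), a call lost without that library (0.18, edgeR adjusted p = 0.0833) and without DMSO replicate 4 (0.24, edgeR adjusted p = 0.0701). The combination was 0.50 above DMSO (SE 0.10, edgeR adjusted p = 0.000383; 0.54 without replicate 1) and 0.21 above MI-503 (SE 0.10, edgeR adjusted p = 0.0933), the latter called without MI-503 replicate 3 (0.32, edgeR adjusted p = 0.00714) and with the replicate number as a block (0.27, edgeR adjusted p = 0.0328). The ratio of IFNGR1 to IFNGR2 per length was 5.94 ± 0.708, 6.12 ± 0.706 and 6.96 ± 0.508 in the 3 groups. IFNGR2 lies on 2 sequences of the annotation and shares 6.9% of its exon bases with TMEM50B, and with the unshared bases of 1 sequence as its length the ratios were 3.58 ± 0.426, 3.69 ± 0.425 and 4.19 ± 0.306. Fragments that map to both sequences were left out of the counts, so IFNGR2 may still be understated and these ratios may be too high.

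The promoter CG counts given above were set beside the changes under MI-503, a pairing chosen after both had been seen. The 3 members of the largest change that have a matched promoter, IL7R, IL10RA and CSF3R, had 0, 4 and 3 CG in the poorer promoter, and the 5 members with 25 or more changed by 0.04 to 0.35. IL2RG, with 4 CG, was the exception among the poor ones at 0.13. The count of IL10RA is that of a promoter inside the gene, and the sequence at its annotated start was not examined.

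**Figure D4:**
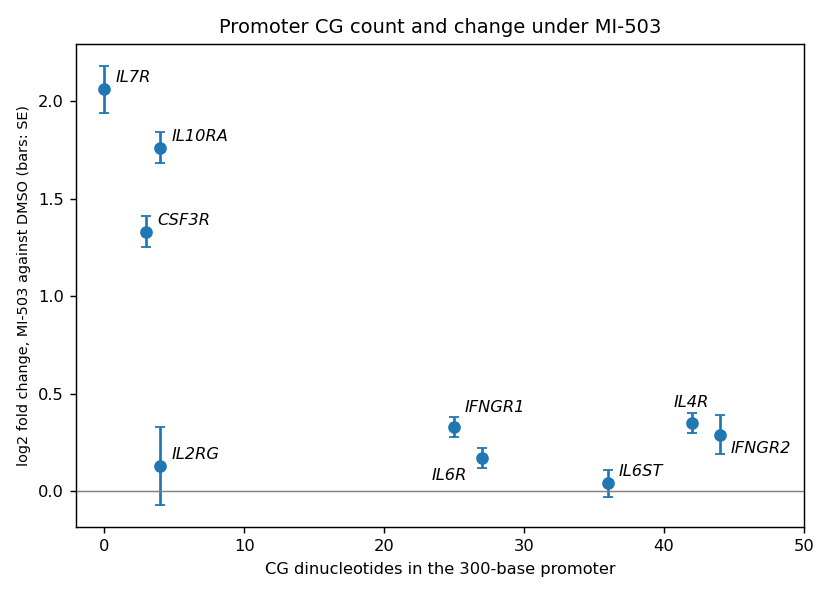
Number of CG dinucleotides in the 300-base RefSeq promoter (the poorer one where a gene has several) against the log2 fold change of MI-503 over DMSO, bars giving the SE, for the 9 receptor genes with a matched promoter. IL7R, IL10RA and CSF3R lie at the upper left, with at most 4 CG and changes from 1.33 to 2.06, IL2RG lies below them at 0.13, and the 5 others lie at 25 or more CG and at most 0.35. The IL10RA promoter lies inside its gene and not at the annotated start.

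Partner chains that complete these receptors were counted over a list of 16, of which 8 had enough counts to be tested. Among the 8, 4 were called higher and 1 lower in MI-503, 4 and 1 in the combination against DMSO, and 3 and 1 between the treatments, with median log2 fold changes of 0.51, 0.36 and 0.18. Over all tested genes, the shares called higher and lower were 22.0% and 29.3%, 31.7% and 32.8%, and 23.6% and 23.8% in MI-503 against DMSO, the combination against DMSO and between the treatments, with medians of −0.03, 0.01 and 0.00. Without combination replicate 1, the lower counts in its contrasts were 3 and 2, and between the treatments the lower count was 0 without MI-503 replicate 2 or combination replicate 2 or 4, and 2 with the replicate number as a block. The lower chain between the treatments, named after its values were seen, was IL2RB, which pairs with IL2RG and fell by 0.99 (SE 0.34, edgeR adjusted p = 0.0229) at a level near 1 CPM. IL13RA1, which pairs with IL4R, was the clearest, with 21.0, 40.6 and 48.0 CPM in DMSO, MI-503 and the combination and log2 fold changes against DMSO of 0.95 (SE 0.05, edgeR adjusted p = 1.67e-10) and 1.19 (SE 0.05, edgeR adjusted p = 6.95e-12). IL4R was thereby 1.67 ± 0.0559, 1.11 ± 0.0495 and 0.968 ± 0.100 times as abundant as IL13RA1 per length. IL10RB, the second chain of the interleukin-10 receptor, rose by 0.41 and 0.62 (edgeR adjusted p = 1.51e-06 and 9.16e-09) and by 0.20 between the treatments (edgeR adjusted p = 0.00236). IL27RA, which shares IL6ST, changed by 0.06 in MI-503 (edgeR adjusted p = 0.424) but by 0.44 from MI-503 to the combination (edgeR adjusted p = 1.72e-05), the same step at which IL6ST was called. OSMR, the oncostatin M chain that joins IL6ST, fell by 1.53 in MI-503 and by 1.03 in the combination (edgeR adjusted p = 0.000143 and 0.00285), from 1.74 CPM. IL11RA rose by 0.61 and 0.43 against DMSO (edgeR adjusted p = 0.00219 and 0.0264). IL21R, a partner of IL2RG that shares 24.3% of its exon bases with the antisense gene IL21R-AS1, rose by 0.83 in MI-503 (edgeR adjusted p = 0.00427). It was not called in the combination (0.29, edgeR adjusted p = 0.303), where its libraries spread from 3.35 to 9.04 CPM, beside a mean of 4.71 in DMSO. CRLF2, IL2RA, IL9R, CSF2RA and IL3RA had 0 counts in all 11 libraries. All of these except IL2RA have exons on both X and Y, where fragments that map to both copies were left out, so their 0 does not show a lack of expression. For IL2RA, 3 counts in the shallowest library would be 0.159 CPM.

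JAK kinases and STAT factors, which carry the signal of these receptors, were read from a list of 10, all of them tested. Of the 10, 7 were called higher and 1 lower in MI-503, 6 and 1 in the combination against DMSO, and 7 and 1 between the treatments, with medians of 0.23, 0.42 and 0.21. All tested genes gave 22.0% and 29.3%, 31.7% and 32.8%, and 23.6% and 23.8%. Between the treatments the higher count was 4 without combination replicate 2, and the lower count was 2 without combination replicate 1 or MI-503 replicate 4. STAT2, a factor of the type I interferon response, had the largest rises against DMSO, 0.54 in MI-503 (SE 0.07, edgeR adjusted p = 8.12e-06) and 1.47 in the combination (SE 0.07, edgeR adjusted p = 4.31e-11), from 45.6 to 66.3 and 126.7 CPM. JAK2, which serves CSF2RB, CSF3R and IFNGR2, rose by 0.34 and 0.66 (edgeR adjusted p = 0.000469 and 3.77e-07). TYK2, which serves IL10RB and others, rose by 0.34 and 0.57 (edgeR adjusted p = 2.46e-06 and 4.14e-09). JAK1, which binds IL7R, rose by 0.29 in MI-503 and 0.31 in the combination (edgeR adjusted p = 6.91e-06 and 3.54e-06) with 0.02 between them (edgeR adjusted p = 0.73). STAT5A, which serves interleukin-7 and CSF2RB together with STAT5B and shares 12.7% of its exon bases with that gene, rose by 0.35 and 0.49 (edgeR adjusted p = 4.04e-05 and 9.03e-07), and STAT6, the STAT of interleukin-4, by 0.11 and 0.35 (edgeR adjusted p = 0.0385 and 4.25e-06). JAK3, the kinase bound to IL2RG, was looked at after its values had been seen. It changed by −0.23 in MI-503 (SE 0.13, edgeR adjusted p = 0.144) and fell by 0.81 in the combination against DMSO and by 0.57 against MI-503 (SE 0.15 each, edgeR adjusted p = 0.000108 and 0.0037), from 12.0 ± 0.514 CPM in DMSO and 10.1 ± 0.489 in MI-503 to 6.66 ± 2.13. The chain IL2RG and its kinase were both called lower in the combination, but the IL2RG call against DMSO was lost without DMSO replicate 2 or combination replicate 2. JAK3 spread from 4.69 to 8.92 CPM in the combination, without overlap with the other groups. Whether these changes are linked was not tested. JAK3 was the 1 lower gene of the list in both contrasts of the combination. The lower gene in MI-503, also named after its values were seen, was STAT3, which serves IL6ST, IL10RA and CSF3R and fell by 0.15 (edgeR adjusted p = 0.00567).

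**Figure D5:**
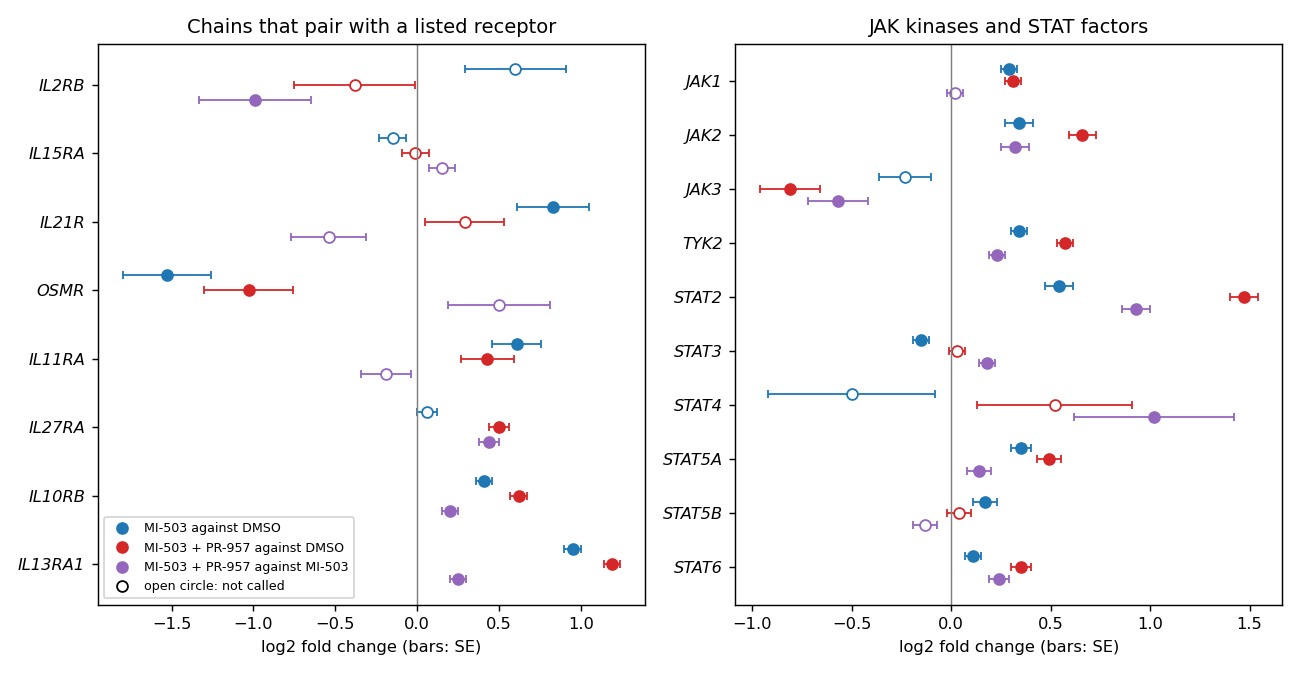
Log2 fold change in the 3 comparisons (colours), bars giving the SE and filled circles genes called at an edgeR adjusted p under 0.05, for the 8 tested partner chains (left) and 10 JAK and STAT genes (right). STAT2 (1.47) and IL13RA1 (1.19) lie farthest to the right against DMSO in the combination, and JAK3 (−0.81) and OSMR (−1.03) to the left.

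Ligands of the members had few counts: of 20 listed, only OSM, encoding oncostatin M, had enough to be tested. CNTF shares 94.7% of its exon bases with ZFP91-CNTF and IL4 44.6% with LOC105379176. Fragments on shared bases were left out, so the low counts of CNTF and IL4 do not show a lack of expression. OSM changed by −0.33 in MI-503 and 0.45 in the combination against DMSO (edgeR adjusted p = 0.227 and 0.0867), and was 0.79 higher in the combination than in MI-503 (edgeR adjusted p = 0.00884). IL7, the ligand of IL7R, had at most 2 counts in any library and TSLP at most 9. Of 16 other cytokine receptors, 10 were tested, with 4 called higher and 0 lower in MI-503, 6 and 0 in the combination against DMSO, and 2 and 2 between the treatments, where the higher count was 1 without combination replicate 1, 2 or 4, without MI-503 replicate 2 or 3, and with the replicate number as a block. The background was 22.0% called higher and 29.3% called lower with MI-503, 31.7% and 32.8% in the combination, and 23.6% and 23.8% between the treatments. IFNAR2 and IFNAR1, the type I interferon receptor, rose by 0.44 and 0.27 in MI-503 (edgeR adjusted p = 5.18e-07 and 3.49e-05). EPOR, the erythropoietin receptor, rose by 0.55 in MI-503 (edgeR adjusted p = 1.56e-06) and was 0.23 lower in the combination than in MI-503 (edgeR adjusted p = 0.00807). PRLR, the prolactin receptor, did likewise, with 2.05 (edgeR adjusted p = 7.95e-06) and −0.88 (edgeR adjusted p = 0.00705), from a low 0.506 CPM in DMSO. IL12RB1, shared by interleukin-12 and interleukin-23, changed by 0.14 in MI-503 (edgeR adjusted p = 0.339) and was 0.52 higher in the combination than in MI-503 (edgeR adjusted p = 0.00164). LEPR changed by −0.08, −0.28 and −0.20 in the 3 comparisons with no call (edgeR adjusted p = 0.73, 0.196 and 0.391).

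Negative regulators of receptor signaling, 18 genes and all tested, were called 4 higher and 4 lower in MI-503, 5 and 6 in the combination against DMSO, and 4 and 6 between the treatments. These counts were near the shares of all tested genes, 22.0% and 29.3%, 31.7% and 32.8%, and 23.6% and 23.8%. SOCS2, a STAT5-induced inhibitor, fell from 222.0 CPM in DMSO to 79.5 in MI-503 and 70.7 in the combination, log2 fold changes of −1.48 and −1.65 (edgeR adjusted p = 2.26e-12 and 6.51e-13). SOCS3, which binds IL6ST and CSF3R, changed by 0.08 in MI-503 (edgeR adjusted p = 0.609) and rose by 0.74 from MI-503 to the combination (edgeR adjusted p = 6.44e-05). CBL, a ubiquitin ligase of activated receptors that shares 21.4% of its exon bases with MCAM, rose by 0.17 and 0.40 against DMSO (edgeR adjusted p = 0.00455 and 1.29e-06). The phosphatase genes went in different directions: PTPN6 rose by 0.25 in MI-503 (edgeR adjusted p = 9.7e-05), PTPN1 fell by 0.29 in MI-503 (edgeR adjusted p = 0.000294), and PTPN11 fell by 0.30 in the combination (edgeR adjusted p = 1.39e-05).

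Known target genes of these cytokines were listed as 24, of which 16 were tested, and 8 were called higher and 4 lower in MI-503, 8 and 5 in the combination against DMSO, and 4 and 5 between the treatments. Beside the shares of all tested genes (22.0% and 29.3%, 31.7% and 32.8%, 23.6% and 23.8%), the counts between the treatments were near the background. BCL3, a nuclear cofactor of NF-kappaB, rose by 1.15 and 1.82 (edgeR adjusted p = 2.03e-08 and 3.32e-11). BCL2, the survival gene that interleukin-7 maintains in lymphocytes, changed by −0.09 in MI-503 (edgeR adjusted p = 0.108) and fell by 0.80 in the combination against DMSO (edgeR adjusted p = 3.11e-10), from 142.2 to 81.3 CPM. Of the interferon gamma targets named here, GBP2 rose by 1.39 and 1.68 (edgeR adjusted p = 4.72e-06 and 3.3e-07), CIITA rose by 1.54 and 1.13 (edgeR adjusted p = 3.55e-07 and 1.1e-05) and was 0.41 lower in the combination than in MI-503 (edgeR adjusted p = 0.0328), and ICAM1 rose by 0.50 in the combination (edgeR adjusted p = 2.43e-07). IRF1 of the same list, named after its values were seen, fell by 0.19 in MI-503 and by 0.30 in the combination against DMSO (edgeR adjusted p = 0.0115 and 0.000454). The interferon gamma target CXCL10, also named after its values were seen, had at most 15 counts in any library. It went from 0.504 CPM in DMSO to 0.174 in MI-503 and 0.0492 in the combination. It was called lower in MI-503, in the combination against DMSO (−3.33) and between the treatments (edgeR adjusted p = 0.00466, 5.45e-05 and 0.0351). GBP5, named likewise, rose by 1.54 and 1.33 against DMSO (edgeR adjusted p = 2.44e-06 and 1.21e-05). FCER2, a target of interleukin-4, rose by 1.87 and 1.49 (edgeR adjusted p = 3.61e-07 and 4.89e-06).

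The genes whose log2 CPM followed IL7R most closely over the 11 libraries, among genes of at least 5 CPM, were CUEDC1 (Pearson's r 0.995), SLC48A1 (0.994), CRTAP (0.994), RNF213 (0.993) and AGTPBP1 (0.993). The libraries fall into 3 groups that share their treatment, and the group means alone give high values, since within groups r was 0.510, 0.117, 0.277, 0.352 and 0.412. SLC48A1, a heme transporter, went from 14.9 to 35.1 and 78.5 CPM. RNF213, a ubiquitin ligase, went from 123 to 163 and 203 CPM. Without combination replicate 1, 2 of these 5 remained among the closest 5. Of the 8 other members at this level, which leaves out IL2RG, IFNGR1 came closest to IL7R, with r 0.982 and place 56 of 10040 genes, and IL10RA next, with 0.960 and place 224.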

How the data were processed

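RNA of MOLM-13 cells was sequenced from 11 libraries. Per the labels and the file headers, the authors prepared TruSeq libraries, sequenced read pairs on a NovaSeq instrument, trimmed them with Trimmomatic 0.39, aligned them with STAR 2.7.10a to hg38, filtered the alignments by a rule that is not stated, and counted fragments over RefSeq exons with featureCounts 2.0.1 without regard to strand, leaving out fragments that mapped to several places or genes. The deposited counts are raw, with no normalization, and the joined table differed from the single files in 0 cells. The authors' tables of fold changes and p-values from DESeq2 were not used.

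Counts were analysed here in R 4.3.3 with edgeR 4.0.16 and in Python 3.11.15. Of 38557 genes, 14683 passed filterByExpr (minimum count 10, minimum total 15). A single model over the 11 libraries estimated 1 mean for each group, with TMM factors from 0.956 to 1.06. Two-sided quasi-likelihood tests of edgeR were adjusted after Benjamini and Hochberg over the 14683 genes, with calls made below an adjusted p of 0.05. The script was tested on simulated counts. CPM used TMM-scaled totals, log2 CPM a prior count of 0.5, and FPKM the exon length of the count files. Coordinates are hg38, 1-based. Totals of 18.9 to 41.2 M set a floor of 3 counts at 0.0729 to 0.159 CPM. Intervals of counting error are not given, since replicate spread is.

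The members and lists were chosen with earlier results of these data known, and 1 further gene of the JAK and STAT list is not reported here. Named were all members, up to 6 tested genes of each list that averaged 1 CPM or more and had the smallest adjusted p in any contrast, untested partner chains, and the 5 genes most like IL7R among those with at least 5 CPM. Deviations from the group means correlated by 0.141, 0.149 and 0.211 between MI-503 and combination libraries of the same number in the labels. Libraries of different numbers were not compared, so these values do not show that the numbers pair the samples. The main model held no pairing. Alternatives were other scaling, filters and tools (DESeq2 1.42.0, limma 3.58.1), the compared groups alone, the replicate number as a block and each library left out, 19 in all. Promoter letters are RefSeq's and were the same in hg38.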

Additional observations from a re-analysis of the deposited data

How the results depend on the processing

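Of the 567 values of single members under the alternatives, 555 were counted as unchanged, which meant the same direction and the same side of the threshold. IL7R in the contrasts of the combination has no p. There a value was counted as unchanged if its log2 fold change moved by less than the larger group SD of its log2 CPM. IL7R kept its direction under all, with log2 fold changes of 2.0 to 2.12 in MI-503 against DMSO, 3.79 to 3.92 in the combination against DMSO and 1.7 to 1.84 between the treatments. The 1 member called lower in the combination against DMSO, IL2RG, made the count 0 to 1 with libraries left out, and 0 with a minimum count of 50, where IL2RG was not tested. The count of members lower in the combination against MI-503 was likewise 0 with that minimum. Counts of members called higher stayed within 1.5 times in all alternatives. Changes that were not called turned sign as follows: IL2RG in MI-503 against DMSO gave −0.00 without DMSO replicate 3 (−0.00 to 0.26 with libraries left out), CSF3R between the treatments 0.01 without MI-503 replicate 1, 0.02 without MI-503 replicate 2 and 0.03 without combination replicate 1 (−0.11 to 0.03), and IL4R between the treatments −0.05 without combination replicate 4 (−0.05 to 0.06). The order of levels per length kept 19 of 30 places with shared exon bases left out and 30 with RLE factors. Of the 5 genes most like IL7R, 2 remained without combination replicate 1. Deviations of same-numbered libraries of MI-503 and the combination correlated by 0.141 to 0.211. Those of DMSO correlated by −0.252 to 0.285 with MI-503 and by −0.06 to 0.11 with the combination. With the replicate block, IFNGR2 between the treatments was called (0.27, edgeR adjusted p = 0.0328), no other member's call changed in any contrast, and calls over all genes were 7630, 9312 and 6813 against 7542, 9472 and 6956. Upper-quartile factors moved the median of all genes to 0.034, 0.082 and 0.011 and gave 3968 higher and 3356 lower genes in MI-503, against 3235 and 4307. Of 684 counts in the other gene lists, 643 stayed within 1.5 times. The cause of these changes was not tested. IL2RG, with 15 to 48 counts per library, and IL7R in DMSO, with 37 to 55, are the members whose precision depth limits most.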

Other observations

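Genes beside IL7R were looked at after its values had been seen, within 250 kb on chromosome 5. SPEF2, which ends before IL7R begins, went from 2.85 CPM in DMSO to 5.92 in MI-503 and 5.72 in the combination, log2 fold changes of 1.06 and 1.01 against DMSO (edgeR adjusted p = 9.69e-06 and 1.51e-05) and −0.05 between the treatments (edgeR adjusted p = 0.798). It was thus higher in MI-503, as IL7R was, with no call for the step at which IL7R rose from 8.42 to 29.3 CPM. LMBRD2, on the far side, changed by −0.21, 0.10 and 0.31 (edgeR adjusted p = 0.0154, 0.216 and 0.00174). CAPSL, UGT3A1 and UGT3A2 between them had at most 13 counts in any library.

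Promoter CG counts were also set beside the calls of all tested genes with a RefSeq promoter, in classes chosen after the members had been seen. Here a gene was classed by its promoter with the most CG, not by the poorer one used for the members. CSF3R, with 9 CG in its richer promoter, thus fell in the class with more CG. Of 716 genes with at most 5 CG, 14.8% were called at least 2-fold higher in MI-503, and of 9978 genes with more, 2.96%. In the combination against DMSO these shares were 24.2% and 6.33%, and between the treatments 8.66% and 2.25%. At least 2-fold lower were 2.09% and 1.08% in MI-503, 4.33% and 2.99% in the combination against DMSO, and 5.31% and 0.982% between the treatments, so changes of that size were more frequent among CG-poor genes in both directions. With changes of any size, 8.52% of the poor and 34.1% of the rich genes were called lower in MI-503, and 33.9% and 21.0% higher. Whether genes with few CG and genes with many also differ in level and count depth was not computed, and the part of either was not tested.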
